A study of Rattus norvegicus with 6 samples.

Results

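The 3401 open chromatin regions of rat chromosome 12 are described here, out of 129499 regions counted over the whole genome (2.63%). They are all rows of the deposited count table that lie on that chromosome, in genome build rn5. The chromosome was chosen by its low shares of regions that opened in the LPS and GCM comparisons with untreated cells, so its shares of opened regions in the LPS and GCM comparisons are descriptions and were not tested against those of other chromosomes. Accessibility was read from DNase I cutting in microglia cultured from the cortex of 1-day-old Wistar rats. The groups were cultures given lipopolysaccharide (LPS) of Salmonella enteritidis at 100 ng/mL for 6 h, cultures given medium conditioned for 24 h by rat C6 glioma cells (GCM) for 6 h, and untreated cultures, with 2 independent cultures in each, every one pooled from 10 to 15 pups. All groups shared 2 weeks of growth with 10% serum and 48 h of rest before stimulation.

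Microglia are the resident phagocytes of the brain. DNase I cuts DNA mostly where nucleosomes are displaced, at promoters, enhancers and other regulatory elements, and the number of cut ends in a region reflects how accessible it is. LPS is sensed by Toll-like receptor 4 and, in macrophages, switches on NF-kB and other factors that open enhancers which were closed at rest. Glioma cells release factors that drive microglia towards a state that favours tumour invasion. The RefSeq annotation of the later rat assembly GRCr8 places on chromosome 12 all 20 genes of a list drawn up for this chromosome. Among them are P2rx7 and P2rx4, ATP-gated channels of microglia, Ncf1, a subunit of the phagocyte NADPH oxidase, Alox5ap, which serves leukotriene synthesis, and Oas1a, an interferon-induced antiviral enzyme. Because that assembly differs from the build of the counted regions, no region was assigned to a gene, regions are named by position, their sequence was not used here, and the cell type was not checked against marker genes.

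Libraries held 9.82 M and 12.4 M counted tags with LPS, 8.26 M and 12.1 M with GCM, and 11.1 M and 7.14 M in untreated cultures. On chromosome 12 the median count per region ran from 45 to 77 over the 6 libraries. Accessibility is given below as CPM, that is tags per 1 M tags in counted regions after composition scaling. Log2 changes and adjusted p-values come from a quasi-likelihood test in edgeR fitted to all regions, with a call at an adjusted p under 0.05. Of the 3401 regions, 3346 passed the filter on low counts and were tested.

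Chromosome 12 was short, densely occupied and accessible from the start. Its regions spanned 54.3 Mb from first to last, the shortest span of the 20 autosomes. They stood at 62.6 regions per Mb, second to chromosome 10 (78.7), and the lowest of the other 19 autosomes was chromosome 2 (33.9). Regions covered 3.17% of the span, again second to chromosome 10 (3.97%). With a median width of 401 bp they were the widest of any autosome, against 355.5 to 390 bp on the others. A region had a median of 23 neighbours within 100 kb, against 21 on the other autosomes, while the median gap to the nearest region was 1712 bp against 1683 bp.

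Starting accessibility was the highest of the 20 autosomes. The median region held 6.35 and 6.30 CPM in the untreated libraries, against 5.01 and 5.04 CPM for the other autosomes together. The same order held in stimulated cultures, with 6.09 and 6.28 CPM with LPS and 6.01 and 6.14 CPM with GCM on chromosome 12, against 5.17 and 5.13 CPM with LPS and 5.03 and 5.24 CPM with GCM elsewhere. The median untreated level was thus 1.27 times that of the other autosomes, and 1.13 times when expressed per kb of region. Only 10.997% of chromosome 12 regions had no DNase hotspot (a stretch of dense cutting listed by the authors) in either untreated library, against 14.1% elsewhere. In all 6 libraries a hotspot was present at 2017 regions (59.3%), against 53.6% elsewhere.

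Within the chromosome the untreated level ran widely, with a 10th percentile of 2.39 CPM, a median of 6.36 CPM and a 90th percentile of 19.96 CPM. The most accessible region, chr12:20738911-20742225, was also the widest at 3315 bp. It held 67.6 and 65.0 CPM with LPS, 69.7 and 53.7 CPM with GCM, and 70.4 and 69.3 CPM in untreated cultures, so that GCM replicate 2 stood lowest. The next, chr12:20515577-20517832, lay 221 kb away and held 53.8 and 61.4 CPM with LPS, 63.2 and 51.4 CPM with GCM, and 60.7 and 61.6 CPM untreated. None of the 5 most accessible regions passed the test for either stimulus. Their log2 changes ran from -0.08 to 0.03 with LPS (adjusted p from 0.758 to 0.973, edgeR) and from -0.19 to -0.02 with GCM (adjusted p from 0.540 to 0.968, edgeR).

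After 6 h of LPS, opening was rarer on chromosome 12 than on any other autosome and closing was more frequent. There were 129 increased regions, 3.86% of those tested, beside 6.71% over all regions of the genome, and 141 decreased regions, 4.21% beside 3.14%. In either direction this made 270 regions, beside 9.85% of all regions tested. The autosome nearest to it in opening was chromosome 20 at 5.11%, followed by chromosome 19 at 5.87%, and chromosome 11 was highest at 8.63%. For closing the next highest autosome was chromosome 6 at 3.76%. The opened shares chose the chromosome and the closed shares come from the same comparison, so neither was tested against the other autosomes. The counts were lower when either untreated library or either LPS library was left out, and so were the shares on the other autosomes. DESeq2 called 8 increased and 4 decreased. These were 0.239% and 0.120% of those tested, against 0.590% and 0.0521% on the other autosomes. Increased regions were 47.8% of the calls on chromosome 12, beside 8470 of 12433 calls over all regions. With whole-library totals they were 74.5% (82 against 28). The other autosomes then had 5.06% of regions increased and 0.538% decreased, against 2.45% and 0.837% on chromosome 12. With libraries scaled to their own tags on chromosome 12, increased regions were 57.8% of its calls (144 against 105). The other autosomes then had 7.44% increased and 2.37% decreased, against 4.30% and 3.14%.

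GCM opened 7 regions of chromosome 12, 0.209% of those tested beside 1.34% over all regions, and this share too was the lowest of the autosomes. It closed 8, or 0.239% beside 0.231%, which was near the level of the genome. The next lowest autosome for opening was chromosome 10 at 0.568%. The number of calls, 15 in all beside 1.57% of all regions, changed when libraries were left out, as did the shares on the other autosomes. Without untreated replicate 1, untreated replicate 2 or GCM replicate 2, edgeR called few or no regions on any autosome. Without GCM replicate 1 the calls were also fewer. For an unadjusted p under 0.05 no share over all regions is given here, so counts at that threshold cannot set chromosome 12 against the genome. At that threshold 95 regions (2.84% of those tested) were higher and 278 (8.31%) lower with GCM in the fit of all libraries. With libraries scaled to their own tags on chromosome 12, these were 161 and 147, and the calls were 20 increased and 6 decreased. Increased regions were then 76.9% of the calls (0.598% increased and 0.179% decreased), against 2.62% and 0.166% of regions on the other autosomes. With composition scaling they were 46.7% of the calls, beside 1693 of 1985 calls over all regions. With composition scaling, all 15 regions kept their direction without untreated replicate 1 and without GCM replicate 2, fits in which a group is left with 1 library. Log2 changes were 0.54 to 1.19 and -1.42 to -0.58 without untreated replicate 1. Without GCM replicate 2 they were 0.67 to 1.36 and -1.60 to -0.56. With all libraries they were 0.71 to 1.33 and -1.29 to -0.71. DESeq2 made 0 calls on chromosome 12, with 24 higher and 40 lower at an unadjusted p under 0.05. On the other autosomes it called 0.00248% increased and 0% decreased. Without either LPS library edgeR called more regions in both directions, on chromosome 12 and on the other autosomes.

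**Figure D1:**
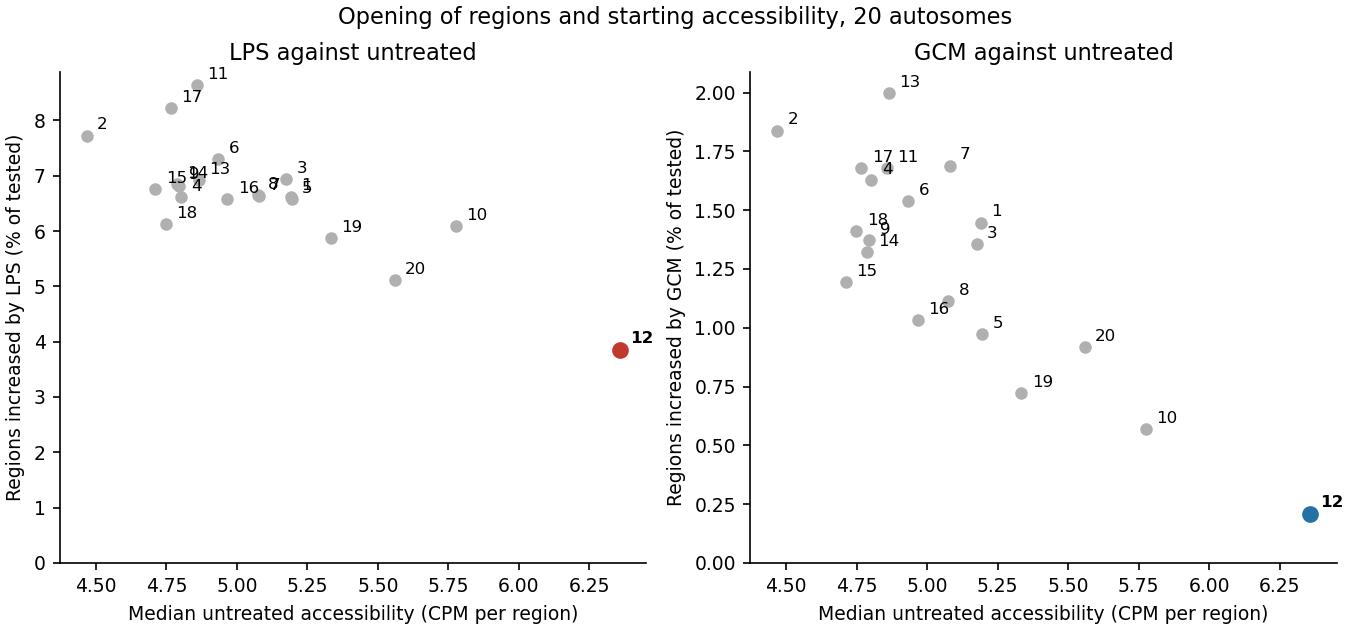
Each point is an autosome, labelled with its number; the horizontal axis is the median untreated accessibility of its regions in CPM, and the vertical axis is the percentage of tested regions increased by LPS (left) or GCM (right). Chromosome 12 lies at the lower right of both plots, at 6.36 CPM with 3.86% opened by LPS and 0.209% by GCM.

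In the plot of opening against starting accessibility, chromosomes 10, 19 and 20 lie nearest to chromosome 12. They too had medians above those of most autosomes, at 5.78, 5.33 and 5.56 CPM untreated, and opened regions made up 6.09%, 5.87% and 5.11% with LPS and 0.568%, 0.720% and 0.918% with GCM. Closing with LPS was 4.21% on chromosome 12 but 2.88%, 3.57% and 2.85% on these.

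Regions were also counted by the order of the libraries, in the same comparisons that chose the chromosome, so these counts are a further description of them. On chromosome 12 both LPS libraries lay above both untreated libraries in 730 regions (21.8%, beside 27.9% over all regions) and below both in 1021 (30.5%, beside 26.3%). Both GCM libraries lay above both untreated libraries in 462 regions (13.8%, beside 23.6%) and below both in 1009 (30.2%, beside 22.4%). The untreated libraries are shared by the LPS and GCM comparisons.

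The counted regions of chromosome 12 took a smaller share of the tags in counted regions in stimulated cultures. Counted regions hold 10.0% to 13.7% of each library, and tags outside them were not analysed here by chromosome. The share was 2.92% and 3.01% with LPS and 2.96% and 2.88% with GCM, against 3.04% and 3.08% in untreated cultures. All 4 stimulated libraries lay below both untreated ones, although replicates of 1 group differed by more than their 95% Wilson intervals (2.91% to 2.93% and 3.00% to 3.02% in the LPS libraries), which cover counting error only. The log2 ratio of mean shares was -0.05 for LPS and -0.07 for GCM, the lowest of the 20 autosomes in both. For LPS the others ran from -0.02 on chromosome 19 to 0.04 on chromosome 2, and for GCM from -0.04 on chromosome 20 to 0.05 on chromosome 2. Stimulated libraries lay wholly below untreated ones on 3 autosomes for LPS and on 8 for GCM, chromosome 12 among them in both.

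**Figure D2:**
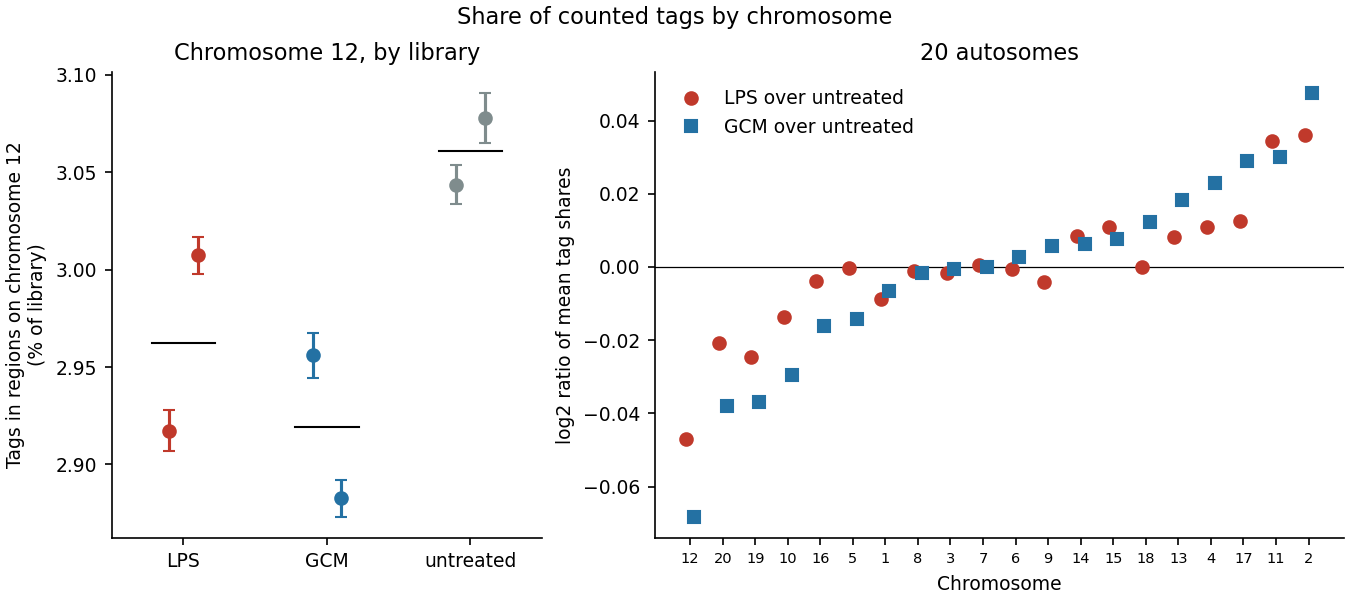
Left, percentage of each library's counted tags that lay on chromosome 12, with 95% Wilson intervals as bars and the mean of each pair as a line (the axis does not start at 0). Right, log2 ratio of the mean tag share of each autosome, LPS or GCM over untreated; chromosome 12 is lowest for both, at -0.05 and -0.07.

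Log2 changes of single regions were shifted in the same direction. The median change with LPS was -0.04, with 56.3% of the tested regions below 0, against 49.96% on the other autosomes. For GCM the median was -0.08, with 63.7% below 0, against 50.0025%. Relative to the other autosomes the medians lay at -0.04 and -0.08. Over the 16 alternative settings they ran from -0.07 to -0.02 for LPS and from -0.10 to -0.06 for GCM. Scaling largely cancels in this difference, so the settings that change only the scaling could hardly move it. The upper side of the distribution was shorter as well. With LPS the 95th percentile was 0.58 on chromosome 12 and 0.78 elsewhere, while the 5th percentile was -0.61 and -0.59. With GCM the 95th percentile was 0.35 and 0.60, and the 5th -0.51 and -0.50. With every library scaled to its own tags on chromosome 12, LPS opened 4.30% on chromosome 12 and 7.44% on the other autosomes. For GCM these were 0.598% and 2.62%. That scaling moved all autosomes together, to medians over all autosomal regions of 0.03 for LPS and 0.06 for GCM. It therefore cannot show how opening compares once the shift of chromosome 12 is taken away.

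The shift with GCM was larger in weaker regions. In 4 equal bins of accessibility over all autosomes, set by the LPS libraries, which are not part of the GCM comparison, the median log2 change on chromosome 12 was -0.17 in the lowest bin, -0.10 and -0.07 in the middle ones and -0.06 in the highest. The other autosomes had 0.0081, 0.012, 0.012 and -0.015 in the same bins. With LPS, in 4 bins set by the GCM libraries, the medians were 0.04, -0.03, -0.06 and -0.05 on chromosome 12 and 0.11, 0.0047, -0.02 and -0.02 elsewhere.

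The opened shares were set beside those of the other autosomes at like accessibility, width and density, as a description of the values that chose the chromosome. When the other autosomes were weighted to the accessibility makeup of chromosome 12, read in 10 equal bins from the GCM libraries, 6.47% of their regions were increased by LPS, against 3.86% observed on chromosome 12 and 6.82% for the others unweighted. Reading the level from the untreated libraries, which enter the comparison itself, gave 5.82%. Weighting by width gave 6.94%, by number of neighbours within 100 kb 6.93%, and by level, width and neighbours together 6.71%. For GCM the weighted values were 1.38% by level in the LPS libraries, 1.23% by untreated level, 1.41% by width, 1.31% by neighbours and 1.33% by the 3 properties together, against 0.209% on chromosome 12.

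In these bins, set by libraries outside each comparison, chromosome 12 was below the others in 10 of 10 for opening by LPS and in 10 of 10 for opening by GCM. In bins of untreated level it was below in 9 of 10 for LPS, the exception being the highest bin with 3 of 431 regions (0.696%, against 0.442% elsewhere), and in 10 of 10 for GCM. In the lowest bin, 11 of 213 regions (5.16%) were opened by LPS, against 10.7% elsewhere. In the highest bin this was 2 of 394 (0.508%), against 1.05%. The bins for GCM held 0 to 2 opened regions each on chromosome 12. For closing by LPS chromosome 12 was below the others in 1 of 10 bins set by the GCM libraries and in 3 of 10 bins of untreated level, and the weighted shares of the others were 3.14% and 3.41%, against 4.21% on chromosome 12.

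**Figure D3:**
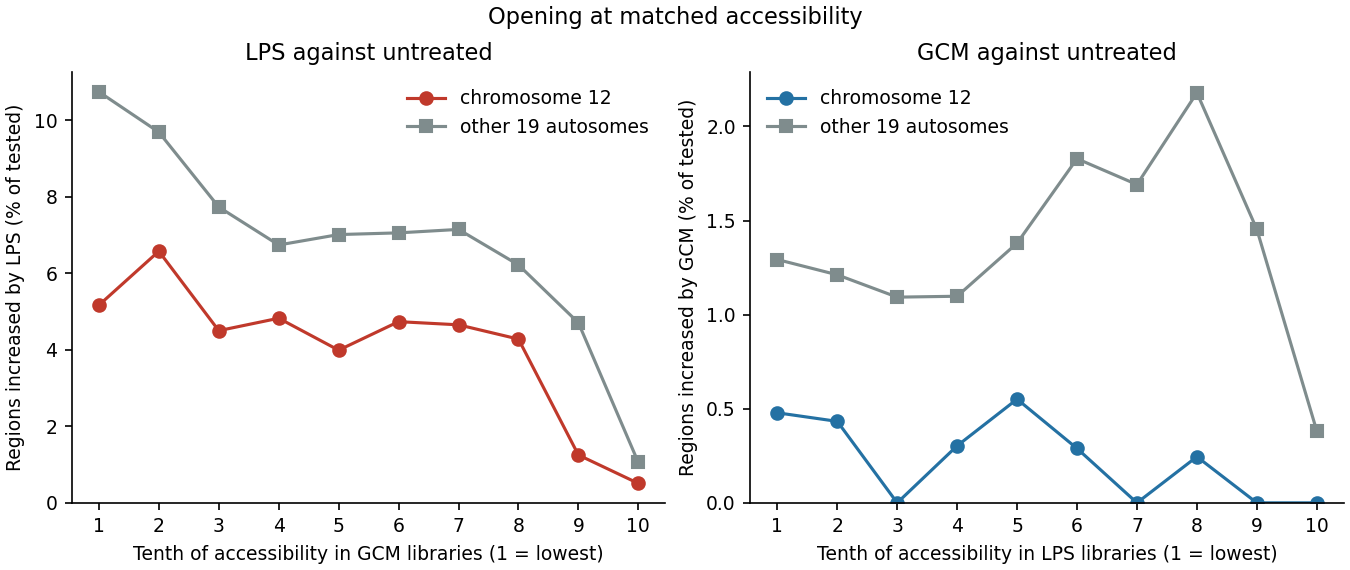
Percentage of tested regions increased by LPS (left) or GCM (right) in 10 equal bins of accessibility, from lowest to highest, for chromosome 12 (circles) and the other 19 autosomes (squares). The bins were set by the libraries outside each comparison, and chromosome 12 lies below the other autosomes in each of them.

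Regions opened and closed by LPS were found in every 5 Mb window of the chromosome. In these 11 windows, with 120 to 536 tested regions each, the share opened by LPS ran from 0.833% in the window at 30 to 35 Mb to 6.17% at 25 to 30 Mb, and the share closed from 1.67% at 30 to 35 Mb to 6.86% at 50 to 55 Mb. Closed regions outnumbered opened ones in 7 of the 11 windows. Among 497 such windows of the other autosomes, the median share opened was 6.77% and the middle range 4.76% to 8.98%, and 9 of the 11 windows on chromosome 12 lay below that range. The median log2 change was below 0 in all 11 windows for LPS (-0.13 to -0.0091) and for GCM (-0.12 to -0.06), compared with 45.5% and 41.6% of windows elsewhere. In windows of 2 Mb the median was below 0 in 22 of 27 for LPS and 24 of 27 for GCM, and closed regions outnumbered opened ones in 13 of 27. The signs depend on scaling. With whole-library totals, which put the median of all autosomal regions at 0.09 with LPS and 0.03 with GCM, the median was below 0 in 2 of the 11 windows of 5 Mb for LPS and in 11 for GCM, and over the whole chromosome it was 0.05 and -0.04. With totals on chromosome 12 it was below 0 in 5 windows for LPS and 7 for GCM.

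The lowest medians lay in the sparse window at 5 to 10 Mb (138 tested regions, -0.13 with LPS and -0.12 with GCM), where untreated accessibility was also lowest at 4.65 CPM. The window at 50 to 55 Mb, at the far end, had 24 closed and 11 opened regions with LPS and a median of 6.64 CPM untreated. The window at 15 to 20 Mb was the most populated, with 536 tested regions, and held 28 opened and 22 closed with LPS, and 3 of the 7 regions opened by GCM. In 6 of the 11 windows no region was opened by GCM.

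**Figure D4:**
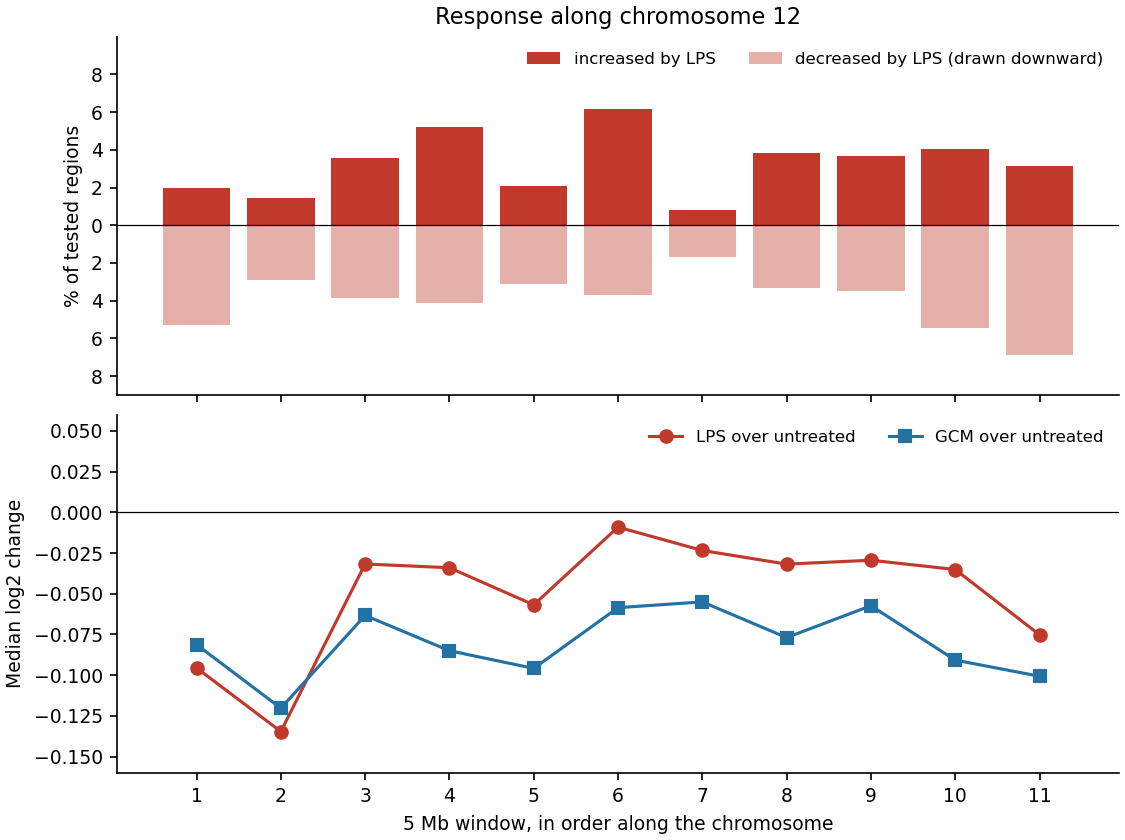
Top, percentage of tested chromosome 12 regions increased (upward) or decreased (downward) by LPS in successive 5 Mb windows; bottom, median log2 change per window for LPS and GCM over untreated. All 22 medians lie below 0, from -0.13 to -0.0091, with composition scaling; with whole-library totals 2 of the 11 LPS medians do.

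Opened and closed regions were mixed at the scale of 100 kb, within which a region had a median of 23 neighbours. Of the 129 regions opened by LPS, 86 (66.7%) had another opened region within 100 kb and 72 (55.8%) had a closed one. On the other autosomes these shares were 76.9% and 34.3%. Of the 141 closed regions, 77 (54.6%) had another closed region within 100 kb and 64 (45.4%) an opened one, against 46.6% and 50.4% elsewhere. These shares depend on how many regions were called and on how many neighbours a region has. They were not compared with a random placement of the calls.

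The regions opened by LPS had lower untreated levels than those left uncalled, which the use of the untreated libraries in the call favours. Their median was 7.35 CPM with LPS and 4.16 CPM untreated, while uncalled regions of the chromosome had 6.32 and 6.53 CPM. In the GCM libraries, outside this comparison, the medians were 4.75 CPM for opened and 6.16 CPM for uncalled regions. Opened regions of the other autosomes had 6.43 CPM with LPS and 3.35 CPM untreated. The median log2 change was 0.75 on chromosome 12 and 0.87 elsewhere, and 23 of 129 (17.8%) exceeded 2-fold, against 35.4% elsewhere. A hotspot was missing from both untreated libraries at 54 of the 129 (41.9%), against 46.6% of opened regions elsewhere. Among uncalled regions of chromosome 12 this was 9.75%. Closed regions of chromosome 12 had 4.98 CPM with LPS, 6.67 CPM with GCM and 8.09 CPM untreated, and a median log2 change of -0.69. The call favours their high untreated level in the same way.

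Ranked by p-value, the first 8 opened regions gained between 2.13-fold and 4.33-fold. At chr12:42814310-42814697 accessibility was 9.64 and 10.3 CPM with LPS, 1.96 and 2.37 CPM with GCM, and 3.49 and 1.82 CPM untreated, a log2 change of 1.81 ± 0.209 with LPS (SE, adjusted p = 2.18e-07, edgeR). Both LPS libraries lay above all 4 others. At chr12:42756666-42756937, 57.4 kb before it, values were 7.40 and 8.39 CPM with LPS, 3.44 and 3.36 CPM with GCM, and 2.86 and 2.38 CPM untreated (1.57 ± 0.212, adjusted p = 2.66e-06, edgeR). Another of the 8, chr12:42544740-42545097, lay 212 kb closer to the start and held 5.48 and 6.52 CPM with LPS, 1.72 and 2.45 CPM with GCM, and 1.97 and 1.26 CPM untreated. In the stretch from 42.5 to 43 Mb, singled out after these values were seen, 5 of 54 tested regions were opened by LPS, 2 were closed by LPS, none was called with GCM against untreated, and at 5 accessibility was below that of LPS cultures in the direct test of GCM.

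The largest fold of the 8 was near the end of the chromosome. At chr12:54287193-54287448 accessibility was 4.56 and 4.07 CPM with LPS, 1.35 and 1.88 CPM with GCM, and 0.984 and 0.980 CPM untreated, a log2 change of 2.11 ± 0.299 (SE, adjusted p = 6.02e-06, edgeR). The remaining 4 regions started at 1.12 to 5.599 CPM untreated. In GCM cultures none of the 8 passed the test against untreated ones (log2 changes from -0.37 to 0.76, adjusted p from 0.366 to 0.936, edgeR). In the direct comparison GCM cultures were below LPS cultures at each of the 8, which their choice by LPS p-values favours.

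Ranked the same way, the first 8 closed regions lost between 1.72-fold and 2.55-fold with LPS, and 7 of them had hotspots in 5 or 6 of the lists. At chr12:49761654-49762221 accessibility was 6.29 and 6.68 CPM with LPS, 14.1 and 13.0 CPM with GCM, and 14.7 and 14.7 CPM untreated, a log2 change of -1.17 ± 0.151 with LPS (SE, adjusted p = 1.39e-06, edgeR). Both LPS libraries lay below all 4 others. At chr12:1228953-1229801 it was 10.2 and 7.91 CPM with LPS, 16.3 and 14.7 CPM with GCM, and 17.7 and 18.2 CPM untreated (-0.996 ± 0.145, adjusted p = 9.74e-06, edgeR). A pair of closed regions, chr12:18590456-18591131 and chr12:18657200-18657921, lay 66.1 kb apart. The first held 9.54 and 6.93 CPM with LPS, 13.7 and 16.4 CPM with GCM, and 14.1 and 16.4 CPM untreated. Of the 8, 6 were higher with GCM than with LPS by the direct test, which their choice by LPS p-values favours.

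The 7 regions opened by GCM rose 1.63-fold to 2.51-fold, with adjusted p from 0.0147 to 0.0478 (edgeR). At chr12:39099251-39099666 accessibility was 5.48 and 4.65 CPM with LPS, 6.50 and 7.86 CPM with GCM, and 3.04 and 4.90 CPM untreated (log2 change with GCM 0.95 ± 0.213, adjusted p = 0.0147, edgeR). At chr12:28241558-28242267 it was 6.09 and 4.81 CPM with LPS, 12.8 and 10.3 CPM with GCM, and 6.26 and 7.70 CPM untreated (0.73 ± 0.168, adjusted p = 0.0173, edgeR). This was the one of the 7 that was also higher with GCM than with LPS. The regions chr12:17415591-17415771 and chr12:17444137-17444409, 28.4 kb apart, were the faintest, with 2.82 to 3.805 CPM with GCM and 1.07 to 1.68 CPM untreated. A single region, chr12:18220539-18220928, was opened by both stimuli, at 8.62 and 9.29 CPM with LPS, 9.08 and 8.51 CPM with GCM, and 4.92 and 6.02 CPM untreated. Its calls for LPS and GCM share the untreated libraries.

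The 8 regions closed by GCM were 1.63-fold to 2.44-fold lower, with adjusted p from 0.00199 to 0.0432 (edgeR). Among them chr12:344303-345094 and chr12:590363-590884 lay 245 kb apart near the start of the chromosome. The first held 11.5 and 10.4 CPM with LPS, 7.86 and 9.17 CPM with GCM, and 14.9 and 12.9 CPM untreated, so that the 3 groups did not overlap. Closing by both stimuli was called at 3 of the 8, again against the same untreated libraries. The strongest, chr12:19047125-19047414, had 2.13 and 2.44 CPM with LPS and 1.96 and 2.70 CPM with GCM, so that all 4 stimulated libraries lay below both untreated ones. At chr12:25676346-25676725 accessibility was 1.84 and 3.44 CPM with GCM, 5.88 and 6.76 CPM with LPS, and 5.54 and 5.74 CPM untreated. This was the one of the 8 that was lower with GCM than with LPS (log2 difference -1.19 ± 0.224, adjusted p = 3.87e-04, edgeR).

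**Figure D5:**
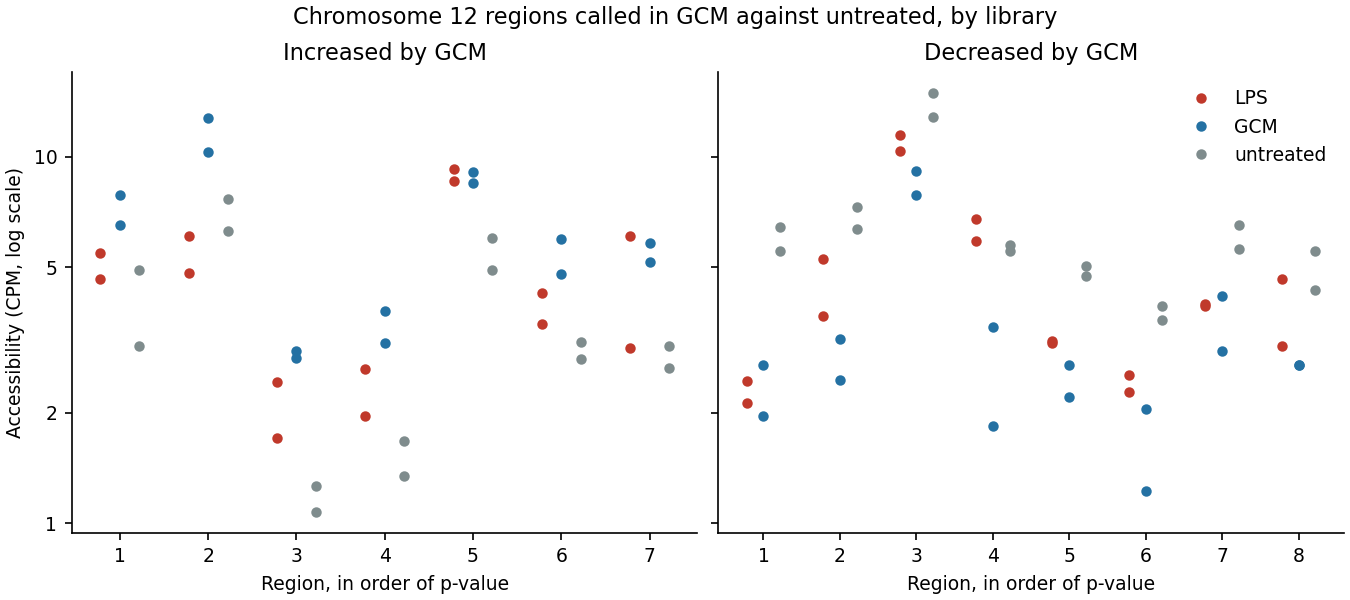
Accessibility (CPM, log scale) in each of the 6 libraries at the 7 chromosome 12 regions increased by GCM (left) and the 8 decreased by GCM (right), ordered by p-value; each point is a library. GCM points lie above both untreated points on the left and below them on the right.

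Set against each other, GCM and LPS cultures differed at 211 regions of chromosome 12 (beside 8.58% of all regions) in a comparison that the choice of the chromosome did not name but that shares the stimulated libraries with it. Accessibility was higher with GCM at 72 (2.15%, beside 3.75% over all regions) and lower with GCM at 139 (4.15%, beside 4.84%). The first share was the lowest of the 20 autosomes, and the second was second lowest, after chromosome 18. Of the 139 regions lower with GCM, 67 (48.2%) had been opened by LPS, which is 51.9% of the 129. Of the 72 regions higher with GCM, 38 (52.8%) had been closed by LPS, which is 27.0% of the 141. The calls being set side by side share the LPS libraries.

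The 5 regions lower with GCM that had the smallest p-values were all opened by LPS, and none was called with GCM against untreated (adjusted p from 0.150 to 0.819, edgeR). At chr12:42814310-42814697, described above, the log2 difference of GCM from LPS was -2.17 ± 0.215 (SE, adjusted p = 1.03e-08, edgeR). The neighbouring regions chr12:48997186-48997546 and chr12:48997823-48998207, 276 bp apart, were both among them. The first held 1.96 and 2.13 CPM with GCM, 5.88 and 8.07 CPM with LPS, and 3.22 and 4.06 CPM untreated. The second held 2.33 and 2.95 CPM with GCM, 6.80 and 10.6 CPM with LPS, and 3.49 and 3.50 CPM untreated, with LPS replicate 2 the highest in both. At a broader site, chr12:39916544-39917381, accessibility was 7.49 and 8.10 CPM with GCM, 16.4 and 17.3 CPM with LPS, and 10.5 and 7.28 CPM untreated.

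Among the 5 regions most clearly higher with GCM, 4 had been closed by LPS. A pair of these, chr12:12015122-12015552 and chr12:12132693-12133111, lay 117 kb apart. The first held 10.4 and 9.98 CPM with GCM, 4.67 and 5.46 CPM with LPS, and 7.96 and 8.82 CPM untreated. At chr12:53360294-53360982 accessibility was 14.5 and 14.2 CPM with GCM, 6.999 and 7.99 CPM with LPS, and 11.98 and 12.6 CPM untreated (log2 difference 0.92 ± 0.145, adjusted p = 2.92e-05, edgeR). All 10 regions named for this comparison kept their call in each alternative in which they were tested. The counts were lower without GCM replicate 2, LPS replicate 2 or GCM replicate 1, and so were the shares on the other autosomes. In DESeq2 the counts were 6 higher and 13 lower. These were 0.179% and 0.389% of those tested, against 0.0851% and 0.488% on the other autosomes. Higher regions were 34.1% of the calls, beside 4731 of 10840 calls over all regions. With whole-library totals they were 13.1% (13 against 86). The other autosomes then had 0.767% of regions higher and 3.58% lower, against 0.389% and 2.57% on chromosome 12.

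Hotspots of single libraries on chromosome 12 numbered 3592 and 3929 with LPS, 3299 and 3562 with GCM, and 4305 and 3031 in untreated cultures. They made up 2.59% and 2.57% of the lists with LPS, 2.63% and 2.62% with GCM, and 2.68% and 2.82% untreated, so that the stimulated lists had the smaller shares. Hotspots were wider than elsewhere in every list, with medians of 359 to 375 bp on chromosome 12 against 341 to 358 bp. At 272 counted regions (8.00%) hotspots were listed for both LPS libraries but for no untreated one, against 10.4% on the other autosomes. For GCM this was 147 (4.32%) against 5.37%. The reverse, hotspots for both untreated libraries but for no library of the stimulus, was found at 111 regions (3.26%) for LPS and 120 (3.53%) for GCM, against 4.16% and 4.25% elsewhere.

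In the authors' deposited table for LPS, 126 of 3355 chromosome 12 regions (3.76%) were increased and 149 (4.44%) decreased at their adjusted p under 0.05, against 6.53% and 3.32% on the other autosomes. The authors' deposited table for GCM had 7 increased (0.209%) and 13 decreased (0.387%), against 1.52% and 0.329%. In both of the authors' deposited tables chromosome 12 had the lowest share of increased regions and the lowest median log2 change (-0.05 and -0.08) among the 20 autosomes. The authors' values come from the same libraries, in the comparisons that chose the chromosome, so they are not independent of that choice.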

How the data were processed

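DNase I cutting was measured in 6 libraries of cultured rat microglia. The deposited count table holds raw counts of tags per region in build rn5, per the file headers. Per the submitters' processing notes, the tools were Bowtie 1.1.2, cutadapt 1.8.3, Picard 1.95, edgeR, DiffBind and SAMtools, with no role given. The authors' comparison tables give log2 fold changes, p-values and CPM per whole library, and the deposited hotspot lists carry a score, per the file headers. A further 16 columns of per-sample values were not used.

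Counts were tested with edgeR 4.0.16 (R 4.3.3) in 1 quasi-likelihood fit of group means over all 6 libraries, with TMM scaling, a minimum count of 10, two-sided tests and Benjamini-Hochberg adjustment over all 126284 regions tested. DESeq2 1.42.0 was an alternative. The fit was tested on simulated counts. With 2 libraries a group, a library left out leaves a lone one that is assumed to vary like the other groups. Regions were named by p-value among those called with both libraries of a group on 1 side (8 per direction against untreated, 5 for GCM against LPS), or by untreated level (5) or width (3). The chromosome, the lists and the tests were chosen with earlier results of these data known. Hotspots were matched to regions by an overlap of at least 1 bp. Intervals cover counting error only.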

Additional observations from a re-analysis of the deposited data

How the results depend on the processing

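Chromosome 12 had the lowest share of regions opened by LPS among the autosomes in 16 of 16 alternatives. Its share opened by GCM was below that of the other autosomes in 16 of 16. The alternatives refit the same libraries, or a part of them, in the comparisons that chose the chromosome. These tallies are therefore not independent of that choice. For GCM the tally also says little in DESeq2, with 0 opened regions on chromosome 12 against 0.00248% elsewhere. The same holds without untreated replicate 1, untreated replicate 2 or GCM replicate 2, where few regions were opened on any autosome. The share of chromosome 12 closed by LPS was the highest in 14 of 16. The share higher with GCM than with LPS was below that of the others in 15 of 16, the exception being DESeq2. The counts themselves moved, as did the shares of the other autosomes, and the cause was not tested. In the order opened by LPS, closed by LPS, opened by GCM, closed by GCM, higher with GCM than LPS and lower with GCM than LPS, they were 82, 28, 1, 2, 13 and 86 with whole-library totals, 8, 4, 0, 0, 6 and 13 in DESeq2, and 49, 44, 3, 1, 23 and 35 over regions whose hotspot was listed in every library, where fewer regions were tested. GCM opened 20 regions with totals on chromosome 12, and opened 13 and closed 14 in a fit of the 4 libraries compared. Leaving out 1 library at a time gave 38 to 130 opened and 39 to 157 closed by LPS, 0 to 11 opened and 0 to 15 closed by GCM, and 27 to 60 higher and 54 to 126 lower with GCM than LPS. The median log2 differences from the other autosomes then ran from -0.07 to -0.02 for LPS and from -0.10 to -0.06 for GCM. Over only the regions whose hotspot was listed in every library, the mean tag share was 3.06% with LPS, 3.01% with GCM and 3.14% untreated. Per kb the untreated ratio to the other autosomes was 1.13, and weighting by untreated level gave 5.82% for LPS and 1.23% for GCM. The highest share opened by LPS in a window of 2 Mb was 10.0%, from 3 of 30 tested regions at the end of the chromosome. The next highest was 6.95% (13 of 187).

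Deviations of same-numbered replicates from their group means were weakly correlated over all regions. The correlations were 0.0484 for LPS with untreated, 0.100 for GCM with untreated and 9.99e-04 for GCM with LPS. Single regions carry counting error, so these values cannot decide whether same-numbered cultures were paired. With the replicate number as a block, LPS opened 146 and closed 172 regions and GCM opened 16 and closed 29. Of 627 values of named regions under the alternatives, 536 kept their call, 91 lost it and none changed sign. DESeq2 and the fits without untreated replicate 1 or GCM replicate 2 lost all 15 GCM calls, with no change of direction. Depth limits the faintest regions, at about 1 CPM untreated.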
